A study of Mus musculus with 16 samples.

Results

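Kidneys of mice with healthy renal function were compared between the 2 expression tables of a study of Klotho-deficient kidney failure. The comparison used 7 control libraries of the 16 in the series: 3 male controls of genotype +/Kl, aged 45, 45 and 46 days, and 4 female controls of genotype +/+, aged 45, 45, 49 and 48 days. They were chosen by their labels (disease state, sex and genotype). All came from the congenic strain 129S1/SvlmJ, a laboratory inbred background carrying the Kl mutation, and none had a treatment in its labels. Every male control thus carried 1 mutant Kl allele and no female control did. The other 9 libraries, Kl/Kl mice with renal failure, were not compared here. Sex, control genotype, expression table and the order of the library numbers all separated the same 3 libraries from the same 4, so a difference between the groups is a difference between male +/Kl and female +/+ kidneys measured in separate tables, and these factors cannot be told apart. The labels do not say that each library came from a separate animal, so the spread between libraries may be partly technical.

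The mouse kidney is known for gene expression that differs between the sexes, and the proximal tubule, the segment that reabsorbs most of the filtrate and handles organic acids, amino acids and drugs, is known as the main site of that difference. Testosterone acting through the androgen receptor induces genes such as Kap (kidney androgen-regulated protein), while other cytochrome P450, glucuronosyltransferase and transporter genes are known for higher levels in females. Klotho itself is made mainly in the distal tubule, where it serves as co-receptor for FGF23, the hormone that lowers phosphate reabsorption and active vitamin D.

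Promoters of 4 genes are shown because the comparison turns on them: Acsm3 (a mitochondrial acyl-CoA synthetase) had the largest difference toward males, Kap is the classic androgen-regulated gene of the mouse kidney and was higher in males, and Ugt1a2 and Ugt1a1 (UDP-glucuronosyltransferases that share their downstream exons) were both higher in females. Each sequence runs 5′ to 3′ on the gene's strand from 250 bases before to 50 bases after the RefSeq start, in build GRCm38.p6: Acsm3 at chr7:119760673-119760972 (+), Kap at chr6:133853618-133853917 (−), Ugt1a2 at chr1:88200361-88200660 (+) and Ugt1a1 at chr1:88211709-88212008 (+). Capitals mark the receptor half-site AGAACA on either strand and the TATA box TATAAA.
Acsm3: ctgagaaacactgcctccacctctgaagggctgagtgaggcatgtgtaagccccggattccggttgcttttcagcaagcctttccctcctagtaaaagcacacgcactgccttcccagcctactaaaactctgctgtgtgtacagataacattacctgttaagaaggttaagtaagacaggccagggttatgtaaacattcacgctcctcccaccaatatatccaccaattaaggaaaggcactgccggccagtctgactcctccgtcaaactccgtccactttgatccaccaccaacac
Kap: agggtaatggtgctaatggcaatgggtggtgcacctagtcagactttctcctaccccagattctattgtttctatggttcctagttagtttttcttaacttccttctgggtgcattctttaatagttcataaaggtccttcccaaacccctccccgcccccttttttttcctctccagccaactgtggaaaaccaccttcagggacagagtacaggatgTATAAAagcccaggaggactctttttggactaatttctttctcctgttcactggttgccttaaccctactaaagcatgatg
Ugt1a2: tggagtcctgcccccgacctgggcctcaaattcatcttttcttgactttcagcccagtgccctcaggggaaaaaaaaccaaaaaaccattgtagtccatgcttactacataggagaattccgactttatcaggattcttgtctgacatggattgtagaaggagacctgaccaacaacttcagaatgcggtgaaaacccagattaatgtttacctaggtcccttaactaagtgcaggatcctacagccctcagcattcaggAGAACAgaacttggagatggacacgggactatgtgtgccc
Ugt1a1: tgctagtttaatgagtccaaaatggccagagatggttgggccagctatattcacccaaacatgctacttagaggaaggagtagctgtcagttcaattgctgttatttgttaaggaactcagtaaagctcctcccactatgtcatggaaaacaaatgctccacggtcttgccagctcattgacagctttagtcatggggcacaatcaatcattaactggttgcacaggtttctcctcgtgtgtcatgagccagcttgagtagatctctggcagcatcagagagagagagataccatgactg
The Kap window held TATAAA and the Ugt1a2 window held AGAACA, while neither motif was found in the Acsm3 and Ugt1a1 windows. RefSeq windows were matched by symbol to 48 of the genes higher in males (52 windows) and 72 of the genes higher in females (102 windows). On either strand, AGAACA was in 19.2% of the first, 19.6% of the second, 12.0% of windows of the genes compared and 19.0% of all 32851 windows. TATAAA was in 23.1% of the windows of genes higher in males, 11.8% of those higher in females, 13.6% of all windows and 7.35% of windows of the genes compared. TTCNNNGAA, the motif of STAT factors, was in 2 of 52 and 6 of 102 windows, in 6.26% of windows of the genes compared and in 8.3% of all. The direct repeat bound by PPARA and HNF4A was in 0 windows of both sets, 0.0458% of those of the genes compared and 0.0396% of all, and the inverted repeat bound by the androgen receptor, which contains the half-site, was in 0 and 2 windows, 0.0306% of those of the genes compared and 0.0487% of all. A match of letters in such a window is a description and not a binding site.

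Male control 3 stood apart from the other libraries. Its Spearman correlation with male controls 1 and 2 over the autosomal genes compared was 0.890 to each, against 0.979 between those libraries and 0.968 to 0.980 among female controls. Mitochondrial genes took 54.3% of its values and 40.2% to 42.5% of those of the other 6 libraries, and its median autosomal level was 1.54 on the log2(TPM + 1) scale against 2.10 to 2.26. Results are therefore given with and without it. Depth, estimated from the spacing of low values, was between 25.2 and 31.3 M reads. Labels of sex were borne out in every library: Xist was at 32.4 to 45.4 TPM in female controls and at most 0.0713 in male controls, and the Y-linked genes Ddx3y and Eif2s3y were at 1.29 to 3.22 TPM in male controls and at most 0.0867 in female controls. The kidney label fitted the markers, since all 18 genes of an early proximal tubule list passed the filter.

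Kl, the gene mutated in this strain, was measured at 14.5, 11.0 and 3.99 TPM in male controls 1 to 3 and 21.98, 9.53, 18.99 and 14.7 TPM in female controls 1 to 4. The groups overlapped, and the difference was −0.76 ± 0.55 (SE) on the log2(TPM + 1) scale, male minus female, or −0.28 without male control 3. The lowest library was male control 3 and the highest was female control 1.

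Of 29217 autosomal genes, 8114 (6410 of them protein-coding) averaged 1 TPM or more across the control libraries and were compared. These TPM values are read counts scaled by genomic span, introns included, and by library total, and every column was first brought to the same total. A gene is called higher in a group where the group means differed by at least 1 on the log2(TPM + 1) scale (2-fold) and no male library overlapped a female library. No call rests on a p-value and none is given for a gene, because the tables were scaled separately. By this rule 74 genes were higher in male controls (0.912% of those compared) and 134 in female controls (1.65%). The middle gene of all 8114 lay at −0.26, so the male libraries as a whole sat lower, and a difference can be read against that value. Without male control 3 the median was −0.08 and the counts were 97 (1.2%) and 75 (0.924%): all 74 of the first genes were still called, but 60 of the 134 were not. With median-of-ratios scaling, which sets the median to about 0 (−0.00), the split turned to 113 higher in males (1.41%) and 74 in females (0.922%), so that the share of calls toward males went from 35.6% to 60.4%. With that scaling and without male control 3 the shares were 1.42% and 0.798%, and under all 4 combinations of scaling and male control 3, 74 genes stayed higher in males and 58 in females. Lack of overlap alone, with no limit on size, held for 2.61% of genes toward males and 31% toward females, or 12.4% and 32.5% without male control 3. Just inside the limit lay Vill at 1.00 and Gm5578 at −1.001, and just outside lay Gm7329 at 0.92 and Tgoln1 at −0.9957.

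**Figure D1:**
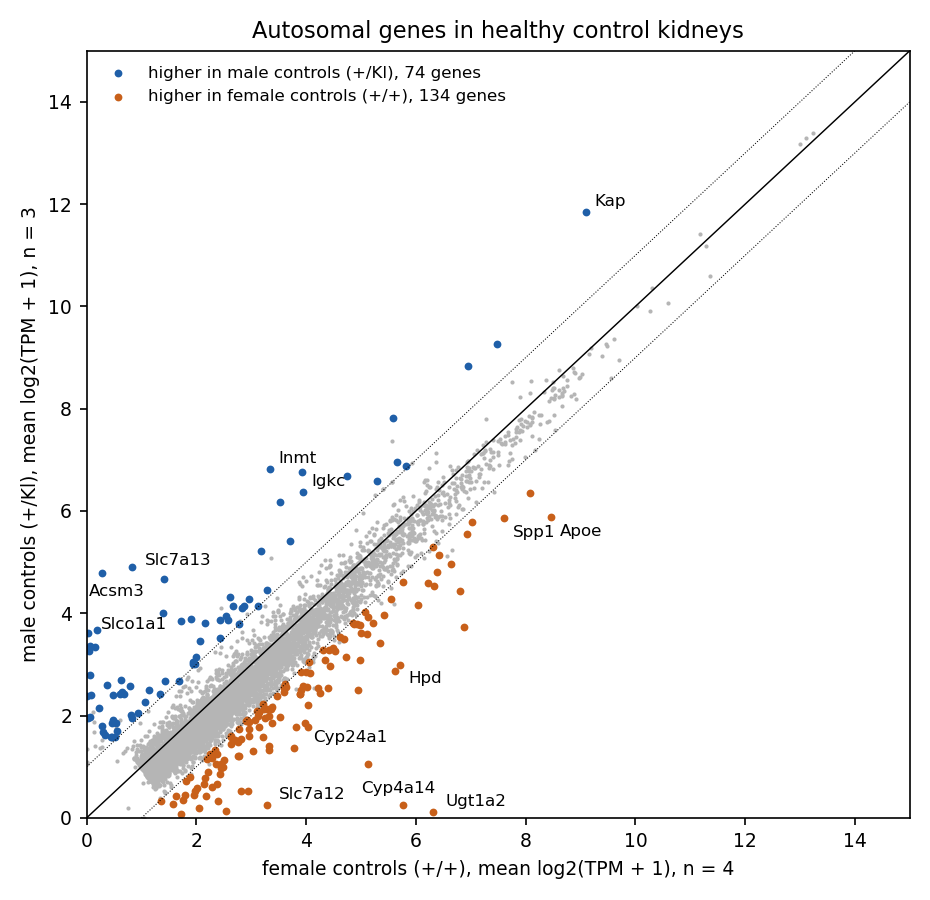
Mean log2(TPM + 1) of 8114 autosomal genes in 4 female controls (x axis) and 3 male controls (y axis), 1 point per gene; blue and orange points are the 74 and 134 genes called higher in male and in female controls, the solid line marks equal levels and the dotted lines a log2 difference of 1. Kap is the topmost blue point, Acsm3 and Slc7a13 at the left edge, and Ugt1a2 and Cyp4a14 at the bottom edge.

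Acsm3, Slc7a13 and Slco1a1 had the largest differences toward males. Acsm3 (chr7:119360146-119386737, plus strand, mm39, protein-coding) was measured at 35.3, 33.8 and 15.8 TPM in males and 0.0508, 0.238, 0.294 and 0.264 TPM in females. Every male library was far above every female library, and the log2 difference was 4.52 ± 0.37 (SE). Slc7a13, an acidic amino acid and cystine transporter of the late proximal tubule, was at 40.6, 37.0 and 16.0 TPM in males and 0.609, 1.03, 0.606 and 0.888 TPM in females, with male control 3 below the other males and the groups wide apart, at 4.08 ± 0.42 (SE). Slco1a1, an organic anion transporter of the brush border, was at 13.3, 17.2 and 6.00 TPM in males and 0.00380, 0.000973, 0.0437 and 0.0174 TPM in females. It was near 0 in all female libraries, and its difference was 3.59 ± 0.41 (SE). Kap (chr6:133826814-133830726, minus strand, mm39) was at 3769, 3330.1 and 3938 TPM in males and 706, 369.8, 765 and 443 TPM in females. Its mean was 3679 ± 314 (SD, n = 3) TPM in males and 571 ± 194 (SD, n = 4) TPM in females, a ratio of 6.44, and male control 3 was the highest library, unlike for most genes. Inmt, which methylates small amines, was at 122, 99.4 and 115 TPM in males and 4.65, 17.5, 6.32 and 13.2 TPM in females, with no male library near the female range, at 3.47 ± 0.41 (SE).

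Further genes of the 15 largest encode enzymes. Cyp4b1, a cytochrome P450 monooxygenase, was at 141, 129 and 66.9 TPM in males and 10.4, 13.1, 17.9 and 16.1 TPM in females. Its ratio of means was 7.83. Cyp4a12a, known as an androgen-induced fatty acid hydroxylase, was at 9.91, 7.79 and 9.96 TPM in males and 0.0989, 0.168, 0.0950 and 0.0680 TPM in females, so that male control 3 was level with male control 1. Its copy Cyp4a12b may share reads with it. Cyp2j13 was at 11.6, 11.8 and 4.43 TPM in males and 0.0203, 0.00385, 0.0522 and 0.0324 TPM in females. All 3 P450 genes had separate groups, with log2 differences of 2.84, 3.20 and 3.22. Cyp2a4, a testosterone hydroxylase, was at 71.5, 81.6 and 61.2 TPM in males and 10.9, 8.16, 12.7 and 10.8 TPM in females. It had been put on the list of genes higher in females but lay on the male side, at 2.64 ± 0.17 (SE). Whether that listing holds for kidney was not checked. The near-identical neighbour Cyp2a5 may share reads with Cyp2a4, so the split between the copies is uncertain. Among conjugating and hydrolysing enzymes, Ugt2b37 was at 10.8, 16.1 and 9.34 TPM in males and 0.149, 0.0671, 0.153 and 0.186 TPM in females and the carboxylesterase Ces1f at 28.8, 32.4 and 15.9 TPM in males and 1.25, 1.49, 1.27 and 2.99 TPM in females. Both had every male library above every female library (3.49 and 3.26). The remaining genes of the 15 largest were Eif1ad4 and Eif1ad3, copies of a translation initiation factor gene that may share reads (3.31 and 2.32), and the immunoglobulin genes Igha and Igkc, described with the immune genes.

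Among genes with a regular symbol, Ugt1a2, Cyp4a14 and Slc7a12 had the largest differences toward females. Ugt1a2 (chr1:88128323-88146720, plus strand, mm39) was measured at 0.107, 0.115 and 0.0303 TPM in males and 63.3, 93.4, 78.3 and 80.8 TPM in females. This was the widest separation of the comparison, −6.19 ± 0.12 (SE). Ugt1a1, the bilirubin-conjugating enzyme, was at 0.243, 0.446 and 0.657 TPM in males and 6.93, 7.56, 7.16 and 5.30 TPM in females. It was higher in the same group (−2.42), but reads in the exons the 2 genes share cannot be assigned with certainty. Cyp4a14, a fatty acid hydroxylase known as a target of PPARA, was at 0.163, 0.344 and 0.0649 TPM in males and 41.2, 53.4, 50.3 and 72.8 TPM in females, and its relative Cyp4a10 at 6.95, 5.87 and 2.35 TPM in males and 25.7, 30.9, 24.4 and 41.0 TPM in females. In both, all female libraries lay above all male ones (−5.52 and −2.44), with the same doubt about reads shared between copies. Slc7a12, an amino acid transporter, was at 0.348, 0.221 and 0.0300 TPM in males and 12.3, 8.47, 8.94 and 6.05 TPM in females. It was low in each male library and its difference was −3.02 ± 0.22 (SE).

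Other genes of the 15 largest toward females were Apoe, Hpd, Cbr1 and Cyp2d26. Apoe, the lipid carrier apolipoprotein E, was at 78.6, 66.8 and 36.9 TPM in males and 319.9, 354, 338 and 405 TPM in females. Its mean was 354 ± 36.7 (SD, n = 4) TPM in females and 60.8 ± 21.5 (SD, n = 3) TPM in males, a ratio of 5.83. Hpd, an enzyme of tyrosine breakdown, was at 6.91, 6.98 and 7.06 TPM in males and 33.5, 65.4, 61.4 and 52.5 TPM in females. The male values were close together, male control 3 included, and far below the female values. Cbr1, a carbonyl reductase, was at 6.86, 7.41 and 4.96 TPM in males and 61.5, 46.7, 54.8 and 34.9 TPM in females, and the P450 gene Cyp2d26 at 32.1, 26.7 and 9.93 TPM in males and 100.1, 102, 122 and 119 TPM in females. Their ratios were 7.72 and 4.85, and the groups did not overlap. The same set held the vitamin D binding protein Gc, at 0.563, 0.750 and 0.107 TPM in males and 5.00, 5.46, 6.19 and 7.96 TPM in females, and the glutathione transferase Gsta2, at 1.82, 4.67 and 1.498 TPM in males and 14.6, 17.5, 13.4 and 16.0 TPM in females. Fatty acid genes among the 15 were Pdk4, which restrains glucose oxidation, and the thioesterase Acot3. Pdk4 was at 2.65, 1.92 and 0.477 TPM in males and 2.93, 11.0, 9.501 and 18.8 TPM in females, where female control 1 lay only just above male control 1. Its difference was −1.99 ± 0.63 (SE), and it was not called with median-of-ratios scaling (−1.79). Acot3 differed by −1.93 and Rdh16f2, a retinol dehydrogenase family gene, by −1.92.

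**Figure D2:**
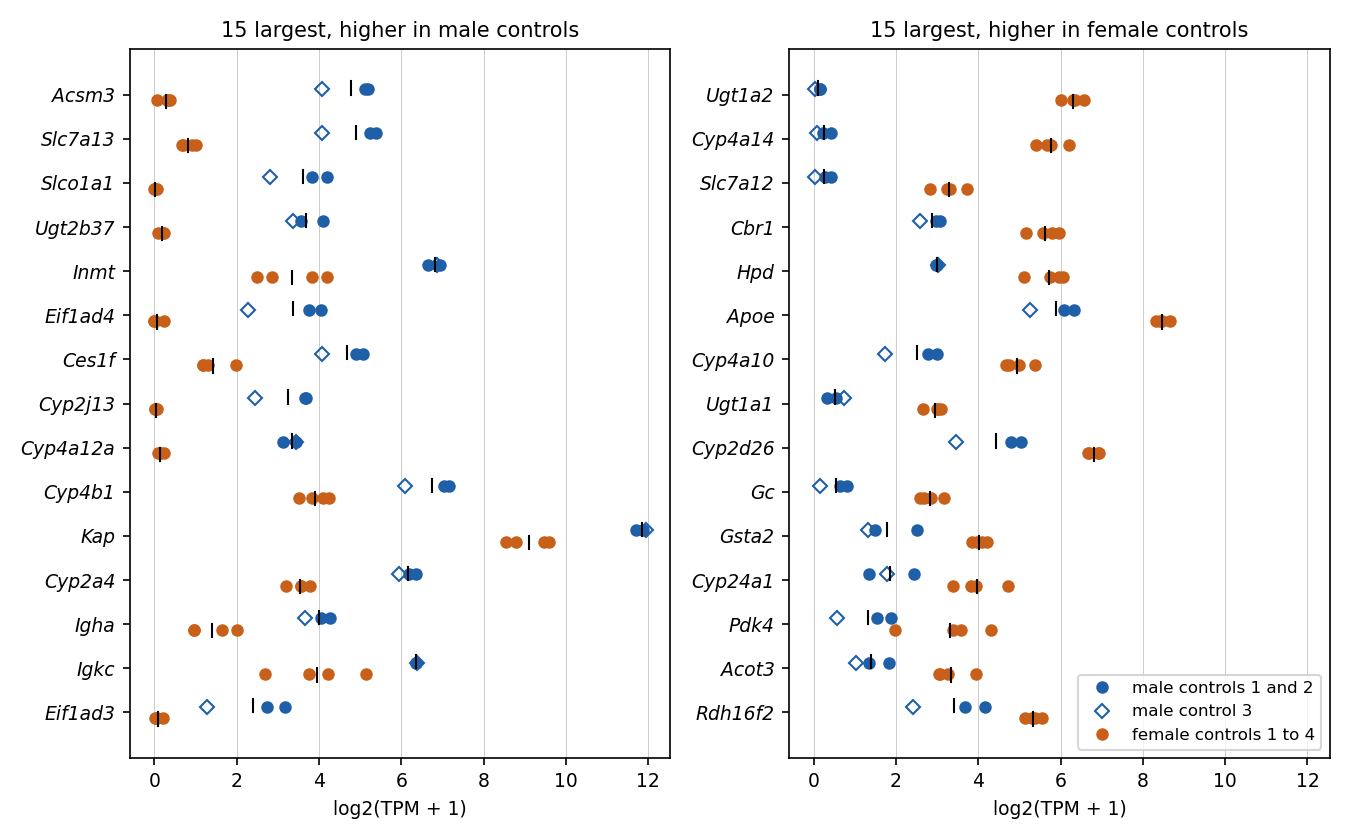
Level on the log2(TPM + 1) scale (x axis) of the 15 genes with the largest difference in each direction (y axis), 1 symbol per library: filled blue circles for male controls 1 and 2, open blue diamonds for male control 3, orange circles for the 4 female controls, and a black bar at each group's mean. No gene has overlapping groups; male control 3 lies below the other males in Acsm3 and Slc7a13 but not in Kap or Igkc, and Ugt1a2 shows the widest gap.

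The cytochrome P450 and Ugt families had members on both sides. Counts in families can be read against the shares of all genes called, 0.912% toward males and 1.65% toward females. Of 12 Cyp2 genes that passed the filter, 4 were higher in males and 2 in females (family median −0.08, against −0.26 for all genes; the median turns positive, 0.04, without male control 3). Besides Cyp2j13 and Cyp2a4 the male set held Cyp2e1, which oxidises ethanol, at 135, 104 and 74.0 TPM in males and 26.5, 20.7, 24.4 and 32.7 TPM in females, and Cyp2d9, a testosterone hydroxylase, at 6.38, 5.798 and 3.21 TPM in males and 0.649, 0.761, 0.600 and 0.910 TPM in females. Cyp2d26 and Cyp2d22 (−1.32) were the female set, so that members of the Cyp2d cluster lay on both sides. Of 6 Cyp4 genes, 2 were higher in males (Cyp4a12a and Cyp4b1) and 3 in females (Cyp4a14, Cyp4a10 and Cyp4a31). Cyp4a31 had −1.26 and was not called with median-of-ratios scaling (−0.93). Among 7 Ugt genes 1 was higher in males and 3 in females; the third, Ugt2b34, had −1.197 and was not called without male control 3 (−0.74).

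In several other families the called members were all on 1 side, whatever the family median. Both Acsm3 and Acsm2 of 4 Acsm genes were higher in males, Acsm2 at 121, 108 and 64.6 TPM in males and 43.3, 37.0, 35.8 and 37.2 TPM in females. Both Ces1f and Ces2c of 5 carboxylesterases were, Ces2c with a mean of 37.4 ± 12.0 (SD, n = 3) TPM against 8.30 ± 2.35 (SD, n = 4) TPM. Of 4 flavin monooxygenases, Fmo5 was higher in males (1.80), with a family median of −0.39. The Slc22 family, organic anion and cation transporters, had 2 of 14 higher in males, Slc22a30 (1.93) and Slc22a28 (1.29), close copies that may share reads. Without male control 3 that count was 5 of 14, adding Slc22a2, Slc22a6 and Slc22a12 (named after their values were seen), with none higher in females either way. Of 15 glutathione transferases, none was higher in males and 3 in females: Gsta2, Gsta4 (−1.46) and Gsto1 (−1.01), the last lost without male control 3. The drug efflux pump gene Abcb1b was the only called member of 15 Abc transporters, at 0.912, 0.704 and 0.235 TPM in males and 3.66, 3.42, 3.42 and 3.18 TPM in females. Female values lay close together and above all male values, at −1.47 ± 0.19 (SE). Slc7 amino acid transporters were on both sides, with 1 of 5 higher in males (Slc7a13) and 2 in females (Slc7a12 and Slc7a7), of which Slc7a7 was not called without male control 3 (−0.58) or with median-of-ratios scaling (−0.77). No called gene was found among 3 sulfotransferases, 27 mitochondrial carriers (Slc25) and 77 ribosomal protein genes, whose medians were −0.37, −0.38 and −0.23. At the shares of all genes, 0.912% and 1.65%, sets of this size would hold few calls or none.

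**Figure D3:**
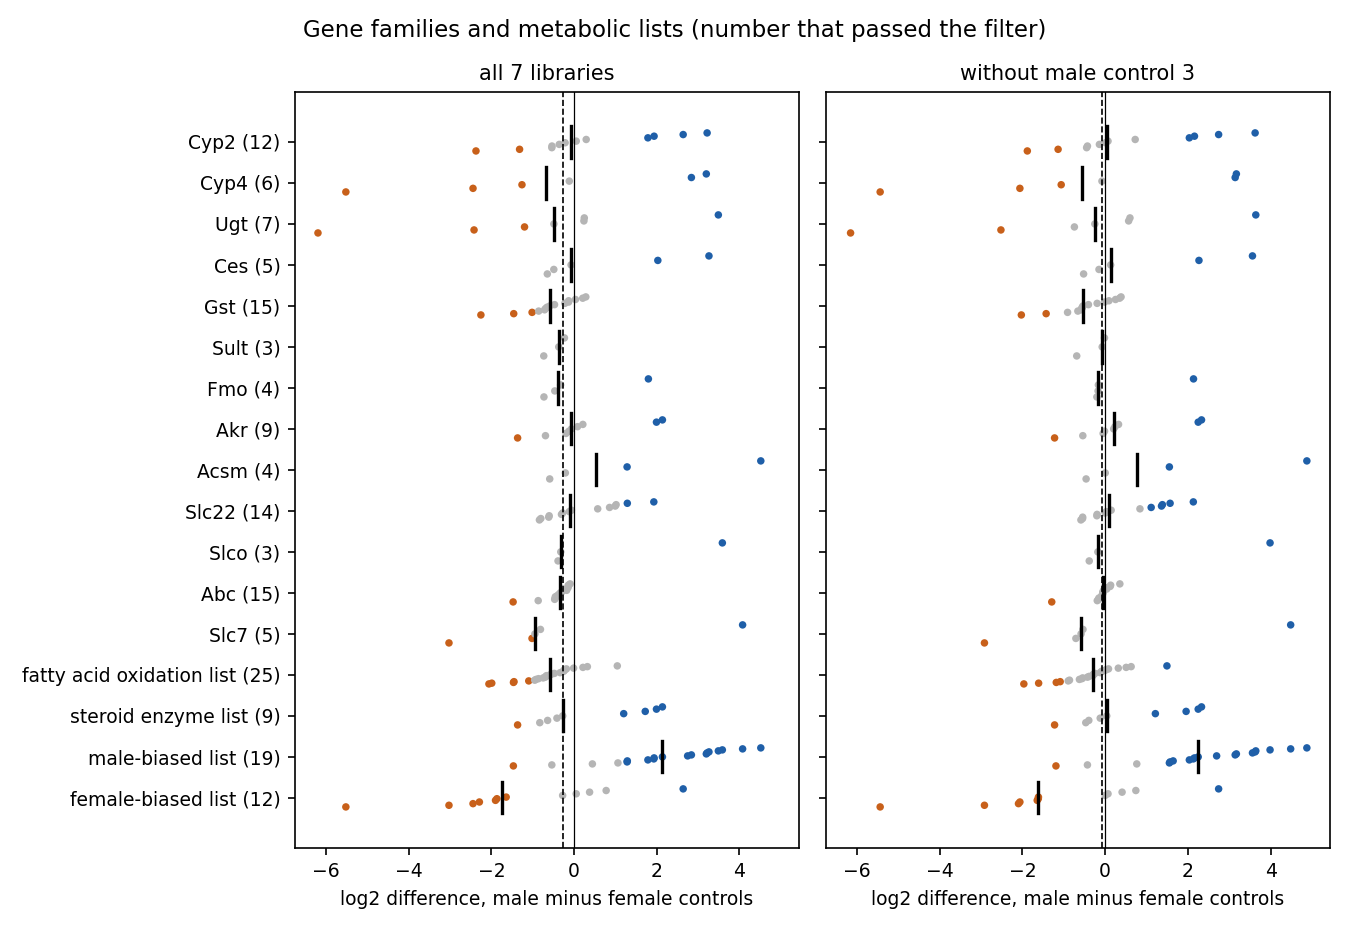
Difference in log2(TPM + 1), male minus female controls (x axis), for each gene that passed the filter in 13 families and 4 lists (y axis, with the number of genes), from all 7 libraries (left) and without male control 3 (right); blue and orange points are called higher in males and females, grey points are not called, black bars are medians and the dashed line is the median of all genes compared. The Cyp4 and Ugt families hold points on both far sides, and the male-biased list has its median at 2.14 on the left and 2.25 on the right.

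Genes listed for a sex difference mostly lay on the listed side, but the lists were chosen with earlier results of these data known. Their counts are thus no independent check of a sex difference. The shares of all genes compared were 0.912% toward males and 1.65% toward females. Of 22 genes listed as higher in male mouse kidney, 19 passed the filter, 15 were higher in male controls and 1 in female controls. Their median was 2.14 (2.25 without male control 3, 2.43 with median-of-ratios scaling). The exception was Serpina1f, a serpin gene, at 9.33, 7.77 and 4.34 TPM in males and 21.7, 22.9, 21.99 and 16.8 TPM in females. Of 16 genes listed as higher in females, 12 passed, 7 were higher in female controls and 1, Cyp2a4, in male controls, with a median of −1.75 (−1.61 and −1.53). Some listed genes fell under the filter, which takes the mean over both groups. Cyp7b1, an oxysterol hydroxylase, was at 1.69, 1.63 and 0.914 TPM in males and 0.0141, 0.0108, 0.0163 and 0.0132 TPM in females, and Timd2, a cell-surface receptor, at 1.51, 1.29 and 0.554 TPM in males and 0.149, 0.0425, 0.0694 and 0.0616 TPM in females. Both had their male libraries above every female library. Slc22a29 was at 0.0861, 0.0834 and 0.0232 TPM in males and 0.791, 0.612, 0.802 and 0.871 TPM in females, with the female libraries higher. Genes such as these were not counted as called, whatever their ratio.

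Enzymes of steroid metabolism, which make and clear sex hormones and glucocorticoids, were mostly on the male side where called. Of 9 steroid enzyme genes that passed, 4 were higher in males and 1 in females, against 0.912% and 1.65% of all genes compared. Akr1c21, a hydroxysteroid dehydrogenase, was at 16.9, 12.6 and 11.3 TPM in males and 1.78, 1.71, 2.31 and 3.65 TPM in females, and its relative Akr1c14 at 16.1, 19.7 and 8.32 TPM in males and 3.32, 1.80, 2.89 and 3.14 TPM in females. Both were higher in every male library (2.14 and 1.99). Hsd17b11 (1.72) and Hsd11b1 (1.202), the enzyme that regenerates glucocorticoid, were the others, while Akr1c19 was lower in males (−1.36). The median of the list, −0.27, turned to 0.04 without male control 3. Of 9 hormone and nuclear receptor genes that passed, 1 was called. Prlr, the prolactin receptor, was at 0.0705, 0.0656 and 0.0139 TPM in males and 2.46, 2.50, 1.92 and 2.25 TPM in females, almost absent from male libraries, at −1.64 ± 0.07 (SE). Esr1, the estrogen receptor, was under the filter at 0.0608, 0.0555 and 0.0261 TPM in males and 0.0317, 0.0413, 0.0387 and 0.0422 TPM in females.

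Called genes of a fatty acid oxidation list were on the female side. Acsm3, Acsm2 and Cyp4a12a, which are outside that list, were higher in males. Among 25 genes of fatty acid oxidation and its regulation that passed, none was higher in males and 5 were higher in females (median −0.58, or −0.29 without male control 3 and −0.32 with median-of-ratios scaling). The shares of all genes were 0.912% and 1.65%. Acaa2, a thiolase, was at 6.73, 5.51 and 3.05 TPM in males and 14.9, 15.5, 14.2 and 15.8 TPM in females, and Acot1, a thioesterase, at 6.91, 5.09 and 2.16 TPM in males and 11.8, 13.7, 11.2 and 19.4 TPM in females. Both were separate between groups (−1.45 and −1.46). Without male control 3 the list had 1 gene higher in males (Crot, a carnitine acyltransferase of peroxisomes, named after its value was seen) and 4 in females. In 14 cholesterol and lipoprotein genes, Apoe was the called gene, and the median went from −0.09 to 0.25 without male control 3. Of 13 sugar transport, glycolysis and gluconeogenesis genes none was called. Pck1, which controls gluconeogenesis, ranged from 306 to 1592 TPM over the 7 libraries, with overlapping groups. Of 75 nuclear genes of oxidative phosphorylation, 1 was called: Cox6b2, an alternative cytochrome oxidase subunit, at 4.48, 4.53 and 5.02 TPM in males and 10.2, 15.9, 14.3 and 16.5 TPM in females. A single call among 75 genes is close to the 1.65% of all genes called higher in females. The median of this family was −0.11, above that of all genes, and turned to 0.22 with median-of-ratios scaling.

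Amino acid breakdown genes gave a smaller set. Of 11 polyamine and arginine genes that passed, Oat, ornithine aminotransferase, and Gatm were higher in females, against 1.65% of all genes compared. Oat was at 10.6, 9.48 and 4.66 TPM in males and 28.8, 25.5, 25.3 and 22.9 TPM in females, and Gatm, which makes the creatine precursor, was at 57.7, 54.8 and 12.3 TPM in males and 84.0, 68.9, 86.5 and 101 TPM in females. The Oat difference was −1.59 ± 0.33 (SE). The Gatm difference of −1.28 rested on male control 3 (−0.58 without it, not called). Of 20 glutathione and antioxidant genes, Gsta2 and Gsta4 were called, and the list's median went from −0.25 to 0.08 with median-of-ratios scaling.

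Among markers of the nephron segments, nearly all calls were toward females, and most of those were lost without male control 3. For comparison, 1.65% of all genes were called higher in females, or 0.924% without male control 3. In whole-kidney RNA, fewer cells of a type and less RNA per cell cannot be told apart. Of 18 early proximal tubule genes, 4 were higher in females: Slc5a12 (−1.87), Lrp2 (−1.41), Gatm and Slc7a7 (−1.02). Lrp2, the endocytic receptor megalin, was at 26.9, 20.2 and 3.63 TPM in males and 40.7, 33.3, 39.9 and 31.9 TPM in females. Male control 3 was far under the other males, and without it the difference was −0.62 and not called. Slc5a12, a lactate transporter, was at 10.7, 6.80 and 1.13 TPM in males and 21.9, 18.2, 21.1 and 19.8 TPM in females and stayed called without that library (−1.15). Over these 18 genes the median ratio of male control 3 to male controls 1 and 2 was 0.40, against 0.88 over ribosomal protein genes. It was as low over chaperone genes (0.39) and cholesterol genes (0.37), so a low ratio was not particular to the proximal tubule. Lists and families ranged from 0.31 (Slc7) to 1.02 (1 urothelial gene). Without male control 3, 1 gene was higher in males (Slc22a6, an organic anion transporter named after its value was seen) and 1 in females, and the list median moved from −0.77 to −0.43. Of 12 late proximal tubule genes, Slc7a13 was higher in males and Slc6a18, a neutral amino acid transporter, in females (−1.03, or −0.72 and not called without male control 3). Their median moved from −0.41 to −0.07, that of all genes then being −0.08, and 4 of the 12 had positive differences.

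Calls in downstream segments showed the same dependence on male control 3. In the thick ascending limb list 2 of 10 genes were higher in females, Egf at 19.96, 20.1 and 6.84 TPM in males and 27.7, 34.0, 36.5 and 38.3 TPM in females, and Slc12a1, the furosemide-sensitive salt carrier, at 17.9, 15.1 and 7.63 TPM in males and 27.8, 31.1, 25.7 and 28.8 TPM in females. In the distal tubule list 2 of 7 were, Slc12a3, the thiazide-sensitive salt carrier, at 13.7, 14.0 and 6.04 TPM in males and 23.6, 23.8, 23.8 and 22.7 TPM in females, and Calb1, a calcium-binding protein, at 13.3, 12.2 and 3.93 TPM in males and 22.1, 17.6, 17.8 and 18.1 TPM in females. None of these 4 was called without male control 3, with values of −0.73, −0.75, −0.72 and −0.53. The list medians then went from −0.71 to −0.40 and from −0.70 to −0.53, while that of all genes compared went from −0.26 to −0.08. The shift was thus not particular to these segments. No gene was called among 6 podocyte, 7 principal cell and 10 intercalated cell markers, with medians of −0.57, −0.58 and −0.51 (−0.43, −0.41 and −0.40 without male control 3). Aqp2, the water channel of principal cells, was at 65.3, 41.4 and 37.3 TPM in males and 79.4, 69.1, 84.1 and 94.0 TPM in females, and the podocyte gene Cdkn1c at 10.8, 11.4 and 11.7 TPM in males and 18.0, 18.5, 16.9 and 17.5 TPM in females. In both every male library lay below every female library, as for 31% of all genes compared, at differences under the limit (−0.79 and −0.61). No endothelial marker of 5 was called. Of 7 mural cell and matrix genes, Thbs1 was called (−1.02), but not without male control 3 (−0.80).

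**Figure D4:**
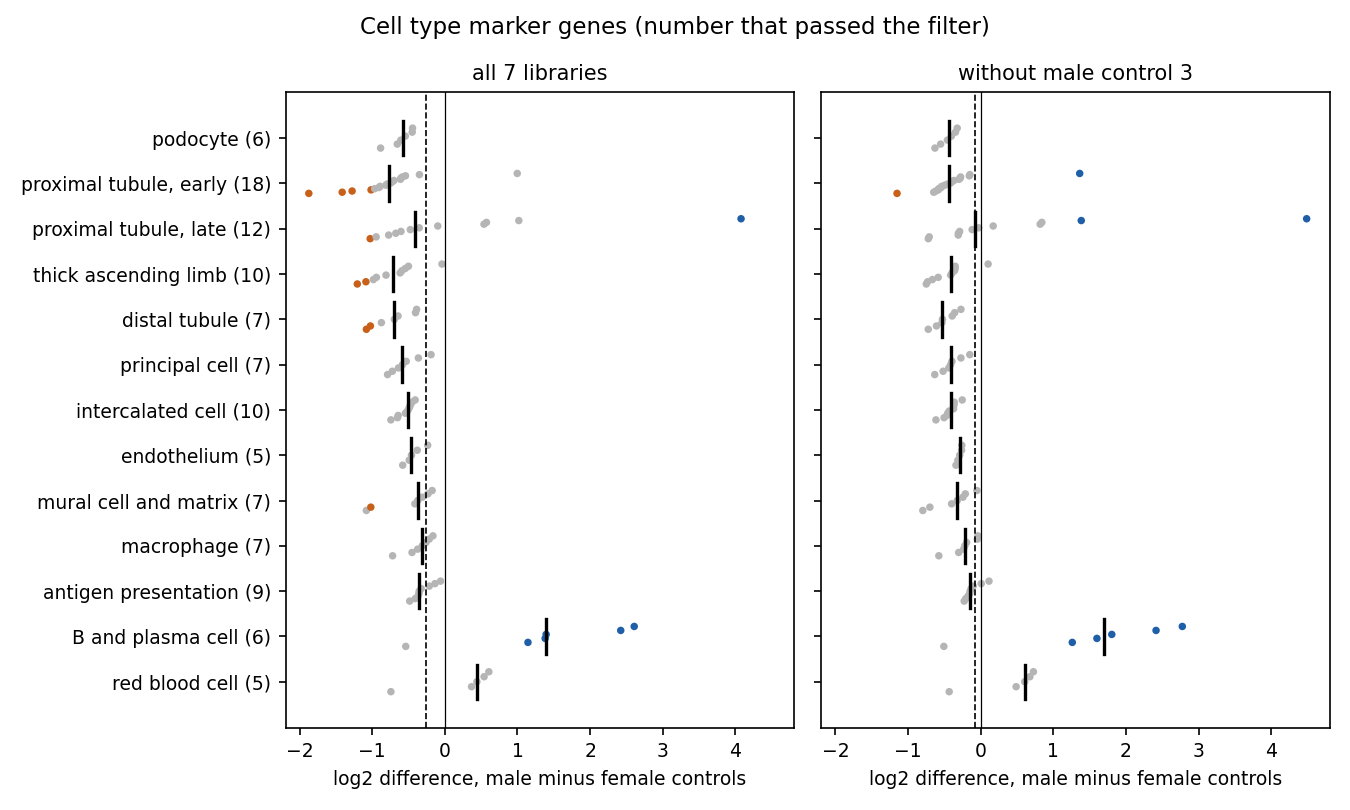
Difference in log2(TPM + 1), male minus female controls (x axis), for each marker gene that passed the filter in 13 cell type lists (y axis, with the number of genes), from all 7 libraries (left) and without male control 3 (right); colours, bars and the dashed line are as in the plot of families. The nephron lists move toward 0 on the right, as does the dashed line of all genes. Of 6 B and plasma cell genes, 5 stay on the male side in both panels.

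Genes of mineral handling around Klotho were mostly not called: 0 of 13 were higher in males and 2 in females, Calb1 and Cyp24a1. Shares of all genes were 0.912% and 1.65%. Cyp24a1, the enzyme that inactivates vitamin D and a known target of FGF23 and vitamin D signalling, was at 1.53, 4.46 and 2.42 TPM in males and 9.49, 14.4, 13.2 and 25.5 TPM in females. Every female library was above every male library, at −2.12 ± 0.43 (SE) and −2.08 without male control 3. The list median was −0.35, against −0.26 for all genes, and −0.25 against −0.08 without male control 3. Fgf23 itself stood at the floor of the tables in all 7 libraries.

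Of 11 immunoglobulin genes that passed the filter, a set assembled after the values had been seen, 7 were higher in male controls and 0 in female controls. These counts are partly set by the filter, which takes the mean over both groups. Among the 7, Iglv1, Iglc1, Igkv10-96, Ighv5-17 and Igkv1-110 averaged 0.239, 0.404, 0.418, 0.473 and 0.586 TPM in females. They passed only through their male values. Igkc, the kappa light chain constant region (chr6:70703419-70703951, plus strand, mm39), was at 81.1, 81.7 and 82.5 TPM in males and 17.6, 34.3, 12.5 and 5.47 TPM in females. The male libraries were close together, male control 3 included, while the female libraries were spread widely below them. Igha, the heavy chain of immunoglobulin A, was at 18.4, 15.7 and 11.7 TPM in males and 3.01, 0.955, 2.14 and 0.943 TPM in females, again with no overlap, at 2.61 ± 0.32 (SE). Of 6 B and plasma cell markers that passed, 5 were higher in males (Igkc, Igha, Iglc1, Iglv1 and Jchain) and none in females, with a median of 1.39 (1.70 without male control 3). The share of all genes called higher in males was 0.912%. The summed level of the whole list of 14 was 101 to 113 TPM in males and 8.34 to 44.3 TPM in females. Ighm, the heavy chain of immunoglobulin M, was not called, at 0.558, 0.770 and 0.554 TPM in males and 1.201, 4.62, 0.583 and 0.582 TPM in females. Of B cell surface markers, Cd79a and Ms4a1 were at most 0.0559 TPM in any library and Cd79b was at 0.0991 to 0.205 TPM. Without male control 3, 8 of the 11 immunoglobulin genes were higher in males. Variable genes made up 7 of the 11, and 4 of them were higher in males. Immunoglobulin genes resemble each other, so reads may be shared between them. None of the 11 T and natural killer cell markers and none of 9 listed neutrophil genes passed the filter. No macrophage marker of 7 and no antigen presentation gene of 9 was called, with medians of −0.31 and −0.35.

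**Figure D5:**
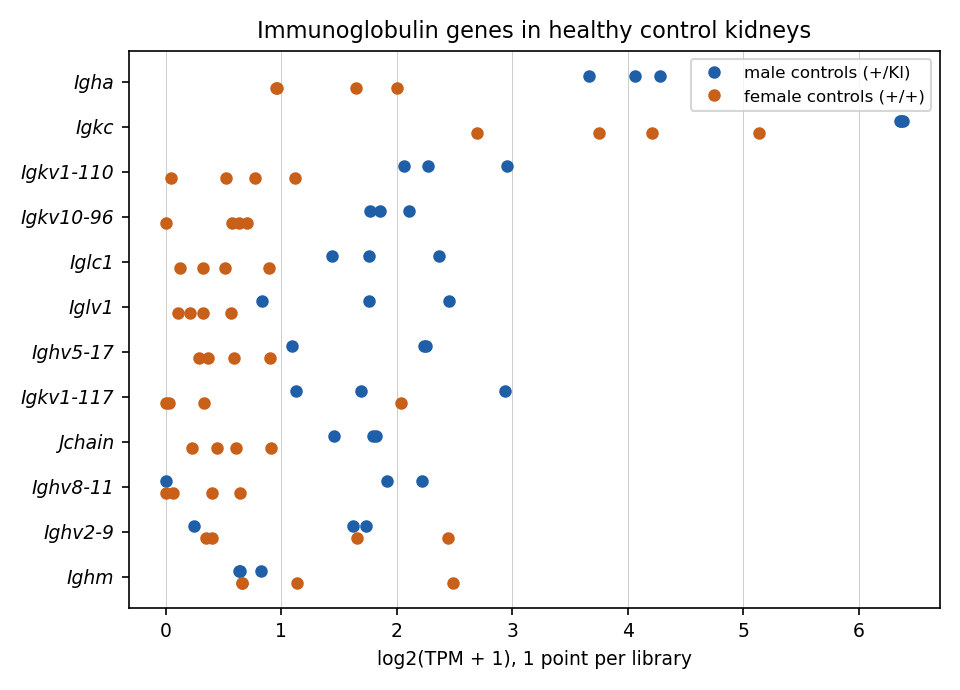
Level on the log2(TPM + 1) scale (x axis) of the 11 immunoglobulin genes that passed the filter and Jchain (y axis), 1 point per library, blue for 3 male controls and orange for 4 female controls. Igha and Igkc show the male points wholly to the right of the female points, while Ighm and Ighv2-9 overlap.

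Other cell and tissue lists gave single genes. With 0.912% of all genes called higher in males and 1.65% in females, 1 call says little about its list. C3, the central complement component, was the 1 called of 9 complement and acute-phase genes, at 0.879, 0.752 and 0.212 TPM in males and 6.71, 2.95, 4.73 and 3.23 TPM in females. Spp1, osteopontin, was the 1 called of 5 injury genes, at 80.5, 62.1 and 37.4 TPM in males and 447, 175, 159 and 114 TPM in females. Female control 1 was highest in both, and without male control 3 the differences were −1.52 and −1.44. Of 12 circadian clock genes Bhlhe40 was called, at −1.05, and not without male control 3 (−0.61). No called gene was found among 4 interferon response, 11 immediate early and 14 chaperone genes. Haemoglobin genes varied within the groups: Hba-a2 was at 17.0, 69.6 and 26.7 TPM in males and 35.4, 18.1, 19.6 and 14.0 TPM in females, with male control 2 highest, and 0 of 5 red blood cell genes were called. The summed red blood cell level was 36.1 to 142 TPM in males and 33.8 to 74.2 TPM in females. Of the liver and pancreas list 2 genes passed and 1 was called: Ttr, a carrier of thyroid hormone and retinol, was at 16.9, 26.4 and 14.2 TPM in males and 3.84, 6.51, 7.80 and 10.6 TPM in females, with the males higher. Muscle genes did not pass the filter, and no called gene was among the 5 fat, 1 adrenal and 1 urothelial genes that passed. Whether blood or adjacent tissue has a part in any difference above was not tested.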

How the data were processed

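Polyadenylated RNA from perfused kidneys was sequenced from directional libraries, per the labels' protocols. The authors deposited TPM values in 2 tables, 1 per sex, listing the same 30277 genes; the submitters' processing notes name build mm39 and Partek, and no source used here gives the aligner, the counting or the use of strand. The deposited columns summed to 285327 in the male table and 265288 in the female table. Low values showed a division by genomic span, introns included, with an offset of about 0.0001 read. Levels of different genes thus cannot be compared as transcript-length TPM. The filter of 1 TPM, the limit of 5 TPM for named genes and the choice of the most abundant list members did use these values. Those choices therefore depend on gene span, and genes with long introns pass less easily. About 75.6% to 77.5% of low values were whole reads within a tolerance of 0.05, too few for a count test, and the depths given are estimates. Errors are spreads between libraries.

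Columns were brought to a common total of 275307 and joined on the gene identifier. Autosomal genes averaging 1 TPM or more were compared as log2(TPM + 1), in Python 3.11.15 with NumPy 2.4.6, pandas 2.3.3 and matplotlib 3.10.9. A gene was called where the group means differed by at least 1 and the libraries did not overlap. The SE of a difference comes from both groups' SDs. limma 3.58.1 in R 4.3.3 gave counts only, as an alternative.

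Named genes were Kl, 5 sex-linked genes, the 15 largest differences in each direction (called, regular symbol, at least 5 TPM in the higher group, also called without male control 3), and up to 4 called members per direction, or the 2 most abundant, of 37 gene lists and 17 families; some genes this rule took are not reported here. The members and lists were chosen with earlier results of these data known. Promoter windows are RefSeq's, build GRCm38.p6, and gene positions are those of the deposited tables.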

Additional observations from a re-analysis of the deposited data

Results flagged for a closer look

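Among the 105 named genes, 9 had 1 female control far from the other 3 by Dixon's test of the gap to the nearest library; chance flags about 1 in 20 groups. In male controls, a group of 3, this was not looked for. Female control 3 was high for Eif1ad4 (0.170 TPM, the others 8.67e-06 to 0.00497), Bhlhe40 (35.0 TPM, the others 25.4 to 26.9) and Psca (7.59 TPM, the others 5.13 to 5.53). Female control 4 was high for Ces1f (2.99 TPM, the others 1.25 to 1.49) and Sult1d1 (64.4 TPM, the others 47.0 to 48.2). Female control 1 was high for Calb1 (22.1 TPM, the others 17.6 to 18.1) and low for Fmo5 (0.485 TPM, the others 0.596 to 0.611). Female control 2 was low for Slc22a30 (0.0728 TPM, the others 0.197 to 0.221) and Slc25a3 (106.0 TPM, the others 120.4 to 122).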

How the results depend on the processing

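The counts of genes higher in males and in females, 74 and 134, became 130 and 309 with columns brought to a total of 1000000 (13107 genes compared), 113 and 74 with median-of-ratios scaling, 114 and 64 with that scaling and without male control 3 (chosen after seeing the data), 29 and 43 with a pseudocount of 5, 37 and 89 with a mean of at least 5 TPM, and 22 and 18 with a log2 limit of 2. The female count alone moved past 1.5 times to 310 with a pseudocount of 0.1, 634 with a 1.5-fold limit and 77 in libraries whose names start with FdK or Fdk (which leaves out male control 3 and female control 2). Leaving out 1 library at a time gave 68 to 97 and 75 to 283 genes; the female count was 283 without male control 1, 259 without male control 2 and 75 without male control 3. Protein-coding genes alone, totals without mitochondrial genes, deposited values, no filter, and libraries of 45 or 46 days gave counts within 1.5 times.

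As a test across the tables, limma with Benjamini-Hochberg adjustment called 75 and 125 genes, sharing 64 and 70 with the calls above. With the replicate number as a block it called 54 and 57 (53 and 52 shared). The numbers did not pair the libraries: correlations of same-numbered deviations were 0.03, −0.13 and 0.00, and 0 of 3 male libraries correlated best with their own number. For the 105 named genes over 21 settings, 1981 of 2170 values moved by less than 1 SD between libraries, 189 moved by more and 0 of the called values reversed. Of 1046 list medians under these settings, 916 stayed within that spread and 130 did not. Part of this agreement was fixed in advance. Settings that change only the fold limit or a filter leave a gene's value unchanged, and fold limits leave list medians unchanged. Leaving out libraries or changing the pseudocount cannot reverse a called gene, whose groups do not overlap. Only a rescaling of libraries against each other could do so. What depth limits cannot be read from these values beyond the spread, since reads are estimated.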
